A study of Mus musculus with 4 samples.

Results

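The bone morphogenetic protein (BMP) and transforming growth factor beta (TGF-beta) signalling genes comprised 52 genes, taken from a list of ligands, receptors, Smads, Id genes and antagonists with Bmp1 and Mapk14. Bmp7 was left out. A promoter covered the 1000 bp before and the 500 bp after every transcription start site (TSS) annotated for the gene in mm10, and its methylation in a tumor was the mean percentage of methylated reads over the CpG cytosines covered by at least 20 reads in all 4 tumors. Such qualified sites were found for 50 of the 52 genes, with 3331 sites in all, out of 20135 of 55413 annotated genes with 604870 promoter sites.

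The assay was reduced representation bisulfite sequencing (RRBS), in which CpG-rich fragments are bisulfite-converted and sequenced so that each cytosine is read as methylated or unmethylated. Tumors of 2 lines were compared: 344SQP, a parental murine lung adenocarcinoma line, and 344SQR, the variant of it that resists anti-PD1. Cells were injected under the skin of the leg of syngeneic female 129Sv/Ev mice aged 12 to 16 weeks, all mice of both lines were given anti-PD1 at 10 mg/kg from day 4 for 4 doses, and tumors were taken 24 h after the last dose. There were 2 tumors per line, which the paper calls biologically independent, and no tumor without anti-PD1 was analysed here. No p-value here covers spread between other lines or clones. The deposited tables held 116794455 and 138331886 CpG calls for replicates 1 and 2 of 344SQP and 160548303 and 174689402 for replicates 1 and 2 of 344SQR. Each line is a single cell line in an immunocompetent host, and whole tumor tissue was used, so a different share of host cells and a different methylation level within the tumor cells cannot be told apart.

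BMPs, growth and differentiation factors, activins and TGF-betas are secreted dimers that bring together type I and type II serine/threonine kinase receptors. The type I receptor phosphorylates receptor Smads, which join Smad4 and enter the nucleus, where Id genes are among the classical BMP targets; the p38 kinase Mapk14 lies on a branch without Smads. Secreted antagonists such as noggin, chordin, gremlin and follistatin hold ligands away from receptors, and inhibitory Smads dampen the signal inside the cell. Methylation of a CpG-rich promoter is often found with a silent gene, but no expression was measured here.

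Promoters with little methylation were about as frequent in the pathway as among all promoters. In 26 of the 50 genes (52.0%) the mean was under 5% in every tumor, against 51.7% of all promoters tested, and in 1 gene (2.0%) it was over 50% in every tumor, against 16.0% of all promoters. Averaged over the 50 genes, methylation was 9.84% and 13.8% in the 344SQP tumors (mean 11.8% ± 2.77, SD, n = 2) and 9.97% and 14.3% in the 344SQR tumors (12.2% ± 3.09, SD, n = 2). The difference of 0.357 percentage points was smaller than the spread within either line, and it changed sign when single tumors were left out. With 2 tumors against 2, a two-sided exact permutation test cannot give a p below 0.333. The median difference between the lines was −0.174 points over these genes and −0.233 points over all promoters, while the mean over all promoters was 23.7% in 344SQP and 21.7% in 344SQR, a difference of −2.05 points.

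Sites were tested one by one and combined over the promoter by Stouffer's z, as in the study. The site test used here was a likelihood ratio test and z was signed, with the false discovery rate (FDR) taken over all promoters. This test treats reads as independent and leaves the spread between tumors of a line out of account. A promoter was called where the FDR was under 0.05, and its direction is that of z. In 344SQR 15 of the 50 promoters (30.0%) were called lower, where 29.7% of all promoters were. Another 7 (14%) were called higher, where 8.79% of all promoters were. The count of higher promoters rose or fell with single tumors left out, as given below. The tumors of 344SQR lay wholly below those of 344SQP in 17 of the 50 genes (32.5% of all promoters) and wholly above them in 3 (7.58% of all promoters). Of the 22 called promoters, 12 (54.5%) had lines that did not overlap, 10 of the lower and 2 of the higher ones, against 58.5% of all called promoters. A difference of at least 5 points was present in 10 of the 22 (45.5%), against 53.1% of all called promoters. edgeR's quasi-likelihood test, which does count the spread between tumors, called 0 of the 50 promoters at an adjusted p under 0.05 (0.0696% of all promoters, or 14 of 20124) and 7 at an unadjusted p under 0.05 (8.62% of all promoters). Those 7 were Tgfbr3, Bmp3, Acvrl1, Bmp6, Tgfb2 and Fstl3, which were lower, and Bmp8a, which was higher; Bmp6 and Fstl3 are named here after their values were seen.

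**Figure D1:**
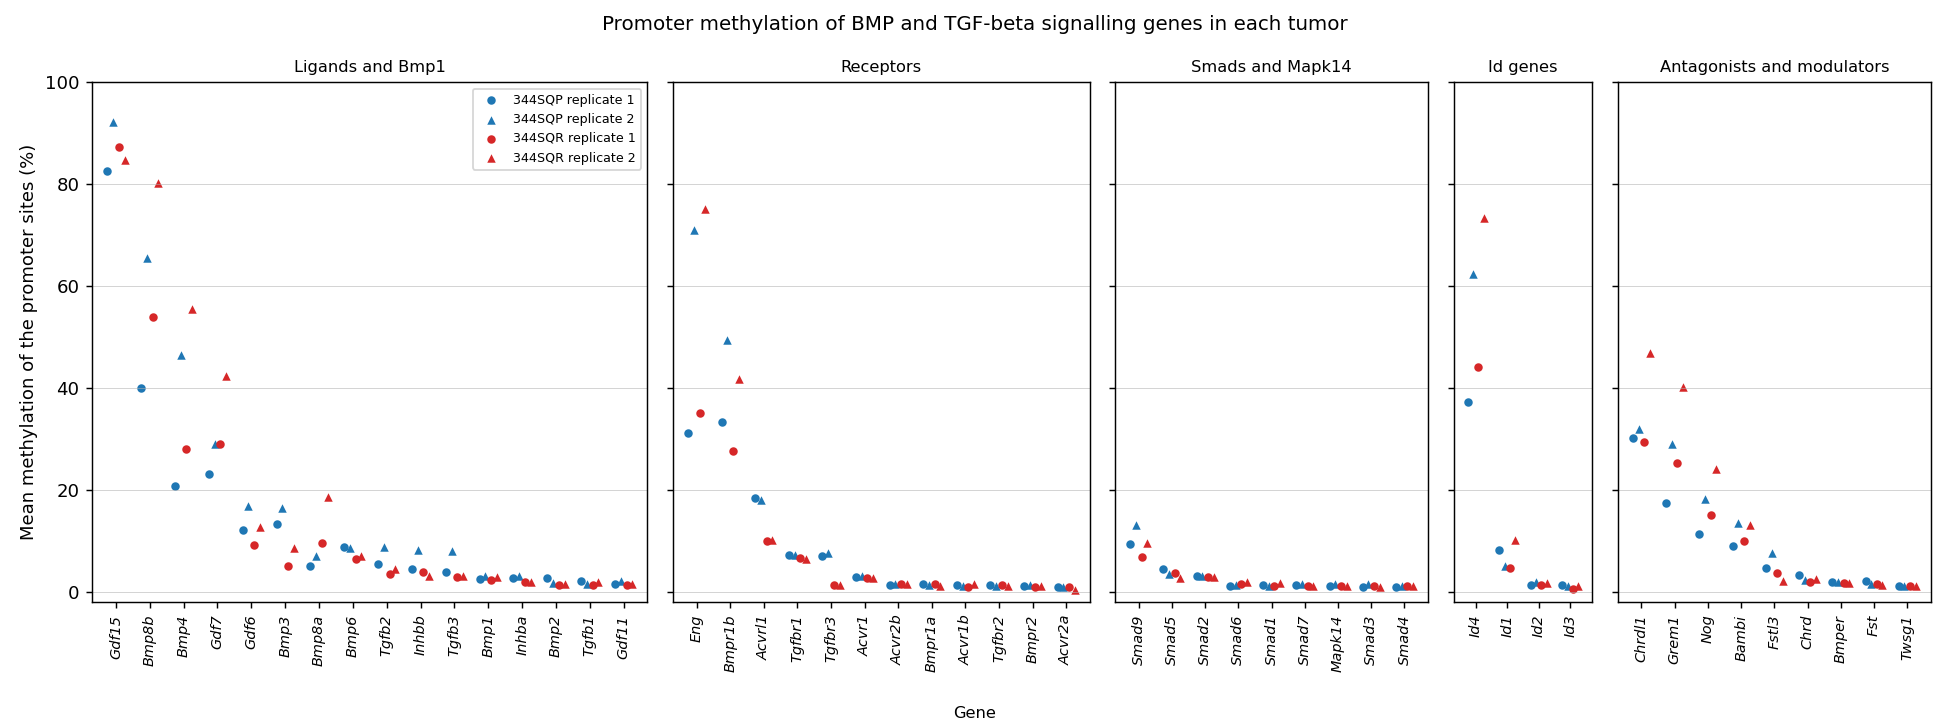
Mean promoter methylation (%, vertical axis) of the 50 genes with a qualified site, by role, with 1 point per tumor (blue 344SQP, red 344SQR; circles replicate 1, triangles replicate 2). Most receptors and Smads lie near 0, and in most genes with higher methylation both triangles lie above the circle of their own line.

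Among the ligands, 7 of 15 tested promoters were lower (29.7% of all promoters) and 4 higher (8.79% of all) in 344SQR. Bmp8b, a BMP ligand encoded on chromosome 4 like its paralog Bmp8a, was methylated at 40.1% and 65.5% in replicates 1 and 2 of 344SQP. In replicates 1 and 2 of 344SQR it was at 54.0% and 80.2% (61 sites, 48 to 224 reads each). Both replicates were higher in 344SQR than the same-numbered tumor of 344SQP, but replicate 1 of 344SQR lay below replicate 2 of 344SQP, so the lines overlapped. The means were 52.8% ± 18 and 67.1% ± 18.5 (SD, n = 2 each), a difference of 14.3 points that was smaller than either SD and ran from 1.21 to 27.4 points with single tumors left out. The promoter was called by this test (z = 26.1, FDR 1.61e-148), while edgeR gave an adjusted p of 0.733.

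Bmp8a was at 5.10% and 7.00% in 344SQP and at 9.64% and 18.5% in 344SQR (45 sites), with no overlap between the lines. The difference lay in coding exon sequence near the inner TSS, where 31 sites averaged 5.47% and 7.64% in 344SQP and 11.9% and 24.7% in 344SQR. The 6 sites upstream of the gene stayed between 5.92% and 7.32% in all tumors. With single tumors left out the difference of 8.03 points ran from 3.59 to 12.5. Counted from the outermost TSS alone, which leaves 12 sites, the difference was −0.264 points and the promoter was no longer called. At the site with the largest difference, chromosome 4 position 123342596, 1 of 98 and 1 of 85 reads were methylated in 344SQP (1.02%, 95% Wilson interval 0.180 to 5.56%, and 1.18%, 0.208 to 6.37%) and 39 of 121 and 94 of 151 in 344SQR (32.2%, 24.6 to 41.0%, and 62.3%, 54.3 to 69.6%). These intervals cover counting error only, since PCR copies are not independent molecules.

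Gdf7, a ligand of the BMP branch, was at 23.0% and 28.9% in 344SQP and 29.1% and 42.3% in 344SQR (50 sites). The lines did not overlap, but only by a small margin between replicate 2 of 344SQP and replicate 1 of 344SQR, and the difference of 9.71 points ran from 3.08 to 16.3 with single tumors left out. Here too the difference lay mainly in coding exon sequence, whose 35 sites averaged 11.8% and 14.8% against 19.3% and 31.2%, whereas the 5 sites upstream of the gene averaged 44.4% and 54.2% against 37.0% and 57.2%. Bmp4, which acts through the same receptors as Bmp2, was represented by 4 sites upstream of the gene, at 20.8% and 46.5% in 344SQP and 28.0% and 55.4% in 344SQR. Replicate 2 was far above replicate 1 in both lines, and leaving out replicate 1 of 344SQP or replicate 2 of 344SQR turned the difference from 8.03 to −4.81 or −5.70 points and ended the call.

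Of the ligand promoters that were lower, Bmp3, an atypical member of the family that opposes other BMPs, had the largest difference. It was at 13.2% and 16.5% in 344SQP and 4.98% and 8.61% in 344SQR (31 sites, all in the 5′ untranslated part of exons). Both 344SQR tumors lay below both 344SQP tumors, and the means of 14.9% ± 2.30 and 6.80% ± 2.57 (SD, n = 2 each) differed by −8.06 points. The FDR was 1.07e-40, the adjusted p of edgeR 0.481. Tgfb2 (5.45% and 8.84% against 3.54% and 4.44%) and Tgfb3 (3.85% and 7.99% against 2.99% and 3.03%) were called lower at low levels, both without overlap. Without replicate 2 of 344SQP the Tgfb3 call was lost and the Tgfb2 difference was smaller. Tgfb1, the ligand most studied in tumors, was between 1.27% and 2.19% in all tumors and was not called. The 4 other lower ligands, Bmp2, Bmp6, Gdf6 and Inhbb (named after their values were seen), had differences of −0.802 to −3.53 points. The lines were apart in Bmp2, Bmp6 and Inhbb. They overlapped in Gdf6, which had the largest of these differences (12.2% and 16.9% against 9.25% and 12.7%). Of the 4 genes, Bmp2 lost its call without replicate 1 of 344SQP. Gdf15, a stress-induced cytokine and distant relative of the family, was the gene over 50% in every tumor, at 82.6%, 92.1%, 87.3% and 84.7% over 3 sites. It was not called in the full data, which changed when replicate 1 of either line was left out. Bmp5 and Gdf5 had no site with 10 reads or more in all tumors; their windows hold 13 and 25 CpGs. Bmp1, a protease that cleaves chordin, was between 2.36% and 3.08% and is named outside the naming rule given below.

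The receptors through which Bmp7 is known to act had low mean promoter methylation, apart from Bmpr1b. Bmpr1a, Bmpr2, Acvr1, Acvr2a and Acvr2b, the type I and type II receptors for BMPs and activins, were between 0.408% and 3.07% in every tumor over 62 to 190 sites each. None was called in the full data, but for Bmpr1a, Acvr1 and Acvr2a this changed when replicate 1 of 344SQR was left out. For Bmpr1a it also changed without replicate 1 of 344SQP, there in the opposite direction by z. The Bmpr1a difference was −0.275 points without replicate 1 of 344SQR and −0.0482 points without replicate 1 of 344SQP. Within the mean of Acvr1, the 3 sites near its innermost TSS were at 88.0%, 96.4%, 92.6% and 89.6%. Of the 12 receptor promoters, 3 were called lower (29.7% of all promoters) and 0 higher. Bmpr1b, a type I BMP receptor, was at 33.3% and 49.4% in 344SQP and 27.7% and 41.8% in 344SQR (43 sites). The lines overlapped, the difference of −6.60 points was smaller than the SDs of 11.4 and 10.0, and without replicate 2 of 344SQP or replicate 1 of 344SQR it was 1.44 or 0.476 points and no longer called.

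Acvrl1, the type I receptor for BMP9 and BMP10 in endothelium, was at 18.5% and 17.9% in 344SQP and 9.96% and 10.2% in 344SQR (27 sites, 28 to 310 reads). The tumors of a line were within 1 point of each other and the lines were apart (18.2% ± 0.374 and 10.1% ± 0.146, SD, n = 2 each), with an FDR of 9.27e-24 and an adjusted p of 0.486 in edgeR. The largest difference fell on the window of the most downstream TSS (position 101134133 of chromosome 15), whose 4 sites averaged 48.7% and 48.7% against 23.7% and 15.2%. Tgfbr3, the coreceptor betaglycan, was at 7.08% and 7.68% in 344SQP and 1.39% and 1.25% in 344SQR (24 sites). Again both 344SQR tumors were below both 344SQP tumors, by many times the SDs of 0.427 and 0.0964. The difference of −6.06 points had an FDR of 3.47e-71, and the adjusted p of 0.102 in edgeR was the smallest among the 50 promoters. At position 107289278 of chromosome 5, which lies 351 bp into the gene, 23 of 152 and 70 of 191 reads were methylated in 344SQP and 17 of 176 and 17 of 187 in 344SQR. This single site differed more than the promoter mean did, by −16.5 points. Its 344SQP replicates, at 15.1% and 36.6%, were also further apart. Eng, a coreceptor of endothelium named after its values were seen, had the largest gap between replicates of a line, with 31.1% and 71.0% in 344SQP and 35.1% and 75.1% in 344SQR. It was not called, but with single tumors left out it was called lower at −15.9 and −16.0 points (without replicate 1 of 344SQP or replicate 2 of 344SQR) and higher at 23.9 and 24.0 points (without the other tumors).

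Most Smads and the p38 kinase had promoters with little methylation. Smad1 and Smad5, the receptor Smads of the BMP branch, were between 1.08% and 4.46% in all tumors. Smad4, their common partner, was between 0.986% and 1.21%, and the inhibitory Smad6 and Smad7 were between 1.1% and 1.97%. Of these promoters, none was called, and the same held for Mapk14, at 1.14% to 1.46%. Smad5 was called higher by z once replicate 1 of 344SQP was left out, although the means then differed by −0.311 points. Smad9, the remaining receptor Smad of the BMP branch, was the exception: it was at 9.44% and 13.2% in 344SQP and 6.75% and 9.48% in 344SQR (31 sites) and was called lower, with overlapping lines and a difference of −3.20 points. With at least 50 reads per site the Smad9 call was lost, and without replicate 2 of 344SQP its difference was smaller. Levels this low rest on few methylated reads and may include reads that bisulfite failed to convert, whose share was not measured here.

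The Id genes are immediate targets of BMP signalling and encode inhibitors of basic helix-loop-helix factors. Id2 and Id3 were between 0.524% and 1.84% in all tumors, over 11 and 7 sites, and Id1 was between 4.61% and 10.2% at its single site. None of these was called. Id4, often methylated in tumors, was at 37.3% and 62.4% in 344SQP and 44.0% and 73.4% in 344SQR (115 sites, 24 to 313 reads). Replicate 2 was about as far above replicate 1 in either line, and the lines overlapped (49.9% ± 17.8 and 58.7% ± 20.7, SD, n = 2 each). Id4 was called higher with a difference of 8.83 points (FDR 2.45e-87; adjusted p 0.879 in edgeR), which turned to −3.71 or −5.83 points, called lower, when replicate 1 of 344SQP or replicate 2 of 344SQR was left out. The 5′ untranslated part (29 sites) held 44.6% and 68.8% against 56.1% and 85.6%, and the 63 sites upstream held 35.0% and 56.6% against 35.7% and 65.9%.

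Of the 9 antagonists and modulators, 4 were lower (29.7% of all promoters) and 2 higher (8.79% of all) in 344SQR. Grem1, which encodes gremlin, was at 17.5% and 29.0% in 344SQP and 25.2% and 40.3% in 344SQR, over 26 sites that all lay upstream of the gene. The lines overlapped, and the means of 23.3% ± 8.18 and 32.7% ± 10.7 (SD, n = 2 each) differed by 9.48 points (FDR 3.06e-47; adjusted p 0.680 in edgeR). With single tumors left out this ran from 1.94 to 17 points. Nog, which encodes noggin, was at 11.3% and 18.2% against 15.1% and 24.0% (126 sites) and was also called higher with overlapping lines; without replicate 1 of 344SQP, or without replicate 2 of 344SQR, the differences were 1.38 and 0.339 points, and z turned negative, without a call in the former case and with a call in the latter. Fst, which encodes follistatin, was between 1.31% and 2.18% in all tumors and was called lower with a difference of −0.442 points, a call that was lost without replicate 1 of 344SQP or replicate 2 of 344SQR. Bambi, a pseudoreceptor, shows the same split between z and the mean in the full data: it was at 8.98%, 13.5%, 10.0% and 13.1% and was called lower (z = −3.59, FDR 0.00120), although the means differed by 0.314 points in the other direction. Its 20 sites in the 5′ untranslated part averaged 2.36% and 5.39% against 0.568% and 1.15%, and its 34 upstream sites 13.1% and 19.9% against 17.05% and 22.3%. The Bambi call was lost without replicate 1 of 344SQR. Bambi is named after its values were seen.

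At single sites, 250 of the 3331 sites (7.51%) were lower in 344SQR at an FDR under 0.05 over all qualified sites, and 214 (6.42%) were higher. Over all promoter sites the shares were 9.44% and 5.31%. The promoters of these genes were CpG-rich, with a median ratio of observed to expected CpGs of 0.700 against 0.575 for all promoters tested. Of the 26 genes under 5% in every tumor, 3 (11.5%) were called, against 11.7% of all such promoters. These were Bmp2, Chrd and Fst, of which Bmp2 and Chrd are named after their values were seen. All 3 lost their calls without replicate 1 of 344SQP, and Chrd also with strands merged. Of the 24 other genes 19 (79.2%) were called, against 67.1% of all such promoters.

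**Figure D2:**
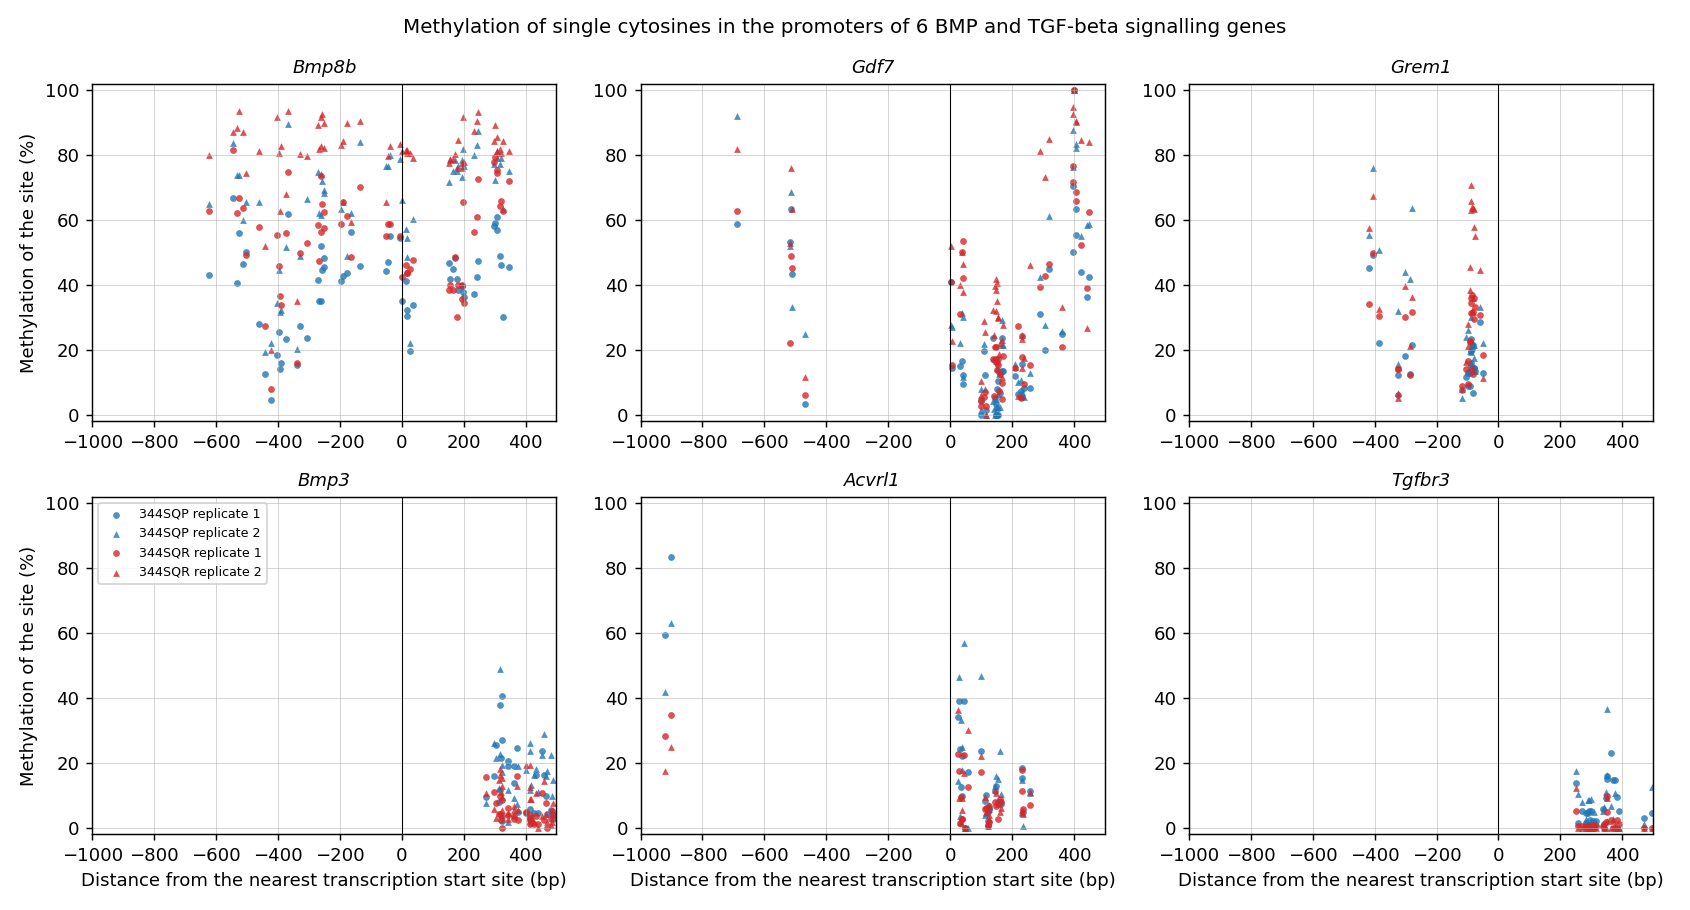
Methylation of each qualified cytosine (%, vertical axis) against its distance from the nearest TSS in bp (horizontal axis, vertical line at the TSS) in 6 promoters, with 1 point per tumor (blue 344SQP, red 344SQR; circles replicate 1, triangles replicate 2). In Bmp8b, Gdf7 and Grem1 red symbols tend to lie above the blue ones of the same shape, and in Bmp3, Acvrl1 and Tgfbr3 below them.

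Sequence upstream of the TSS is shown for the 5 genes with the largest differences among those called with at least 5 sites, as the stretch of 200 bp that held most qualified sites and no annotated exon. All are from GRCm38, written 5′ to 3′ on the strand of the gene, with the CpGs measured on at least 1 strand in capitals. The Bmp8b stretch (chr4:123104723-123104922, plus strand) lies 243 to 442 bp upstream, and its 18 sites averaged 30.2% and 52.4% in 344SQP and 48.7% and 75.4% in 344SQR. The Gdf7 stretch (chr12:8302273-8302472, minus strand) held 4 sites at 40.8% and 44.8% against 30.5% and 51.0%, so the call of that gene did not come from it. The Grem1 stretch (chr2:113758647-113758846, minus strand) ends 1 bp before the TSS, and its 18 sites averaged 14.9% and 20.9% against 24.4% and 43.4%, with the lines apart at 10 of them. The Id4 stretch (chr13:48260952-48261151, plus strand) held 52 sites at 34.6% and 54.7% against 33.4% and 63.8%, with the lines apart at 0 of them. The Acvrl1 stretch (chr15:101133210-101133409, plus strand) lies in an intron, 724 to 923 bp upstream of the most downstream TSS, and its 2 sites averaged 71.4% and 52.4% against 31.5% and 21.25%. The stretches from Bmp8b, Grem1 and Id4 are dense in CpGs (17, 21 and 34), and that from Acvrl1 holds 2.
Bmp8b: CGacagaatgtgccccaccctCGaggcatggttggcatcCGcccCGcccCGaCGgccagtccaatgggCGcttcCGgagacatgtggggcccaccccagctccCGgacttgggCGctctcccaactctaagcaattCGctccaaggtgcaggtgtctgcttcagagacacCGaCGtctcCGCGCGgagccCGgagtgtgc
Gdf7: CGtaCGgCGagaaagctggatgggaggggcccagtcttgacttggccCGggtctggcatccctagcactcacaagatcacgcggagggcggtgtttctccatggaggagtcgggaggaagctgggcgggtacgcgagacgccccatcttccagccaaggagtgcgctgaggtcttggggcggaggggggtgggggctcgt
Grem1: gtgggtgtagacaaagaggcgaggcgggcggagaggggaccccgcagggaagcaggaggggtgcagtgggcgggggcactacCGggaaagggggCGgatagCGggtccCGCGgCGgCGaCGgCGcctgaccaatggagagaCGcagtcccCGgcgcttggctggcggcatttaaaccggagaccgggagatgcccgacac
Id4: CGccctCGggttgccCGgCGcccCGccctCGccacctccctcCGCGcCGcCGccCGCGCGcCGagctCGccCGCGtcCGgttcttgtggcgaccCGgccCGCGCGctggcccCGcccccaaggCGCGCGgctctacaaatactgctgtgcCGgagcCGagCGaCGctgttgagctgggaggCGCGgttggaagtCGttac
Acvrl1: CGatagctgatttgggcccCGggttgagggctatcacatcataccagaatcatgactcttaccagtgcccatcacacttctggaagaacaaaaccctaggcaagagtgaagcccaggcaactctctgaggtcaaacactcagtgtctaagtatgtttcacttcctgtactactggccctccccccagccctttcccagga

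Of the 15 genes that averaged at least 10% over the tumors, 13 were higher in replicate 2 than in replicate 1 in both lines, and 0 were lower in both. Among all promoters at that level this held for 3392 of 8063 (42.1%), and 2552 were lower in both. The median gap between replicate 2 and replicate 1 in the 15 genes was 6.88 points in 344SQP and 13.2 points in 344SQR (2.39 and −0.529 points over all promoters at that level), and the median absolute difference between the lines was 8.03 points. Chromosome Y carried 47437 and 35071 CpG calls in replicates 1 and 2 of 344SQP and 89028 and 31130 in replicates 1 and 2 of 344SQR. These were fewer in replicate 2 of both lines although its total was larger. Chromosome X calls were also fewer there, with 1862117 and 1771074 in 344SQP and 2430195 and 2057031 in 344SQR. The part of tissue composition in the methylation values was not tested.

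Promoters of cell type markers, which differ between the cells a tumor can hold, are given for the same tumors. Qualified sites were found for 6 of 20 leukocyte genes, whose mean methylation was 53.4% and 61.7% in 344SQP and 44.4% and 35.6% in 344SQR. Of these, 4 were called lower (29.7% of all promoters) and 0 higher, but 5 of the 6 rest on 1 to 4 sites, and Coro1a, with 33 sites, was at 18.4% and 25.2% against 18.1% and 28.6% and was not called. The leukocyte gene with the largest difference was Adgre1, the macrophage F4/80 gene, at 65.9% and 78.3% against 36.2% and 9.23% at a single site. The 4 endothelial genes of 7 averaged 51.1% and 61.4% against 39.4% and 55.0% (2 lower, 1 higher), and the 4 fibroblast genes of 7 averaged 38.1% and 44.8% against 34.8% and 42.4% (1 lower, 1 higher). The 6 epithelial genes of 7 averaged 12.7% and 10.1% against 10.96% and 7.28% (3 lower, 0 higher), and the lung lineage gene Nkx2-1, the 1 of 5 with sites, was at 9.87% and 14.5% against 12.7% and 18.7% (called higher). The defining leukocyte genes Ptprc, Cd3d and Cd8a, the endothelial gene Cdh5 and the surfactant gene Sftpc had no qualified site. The share of these cell types in the differences between lines was not tested.

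Other genes of the pathway, 74 in a separate list, had qualified sites in 55. In 344SQR 22 of the 55 promoters (40.0%) were called lower (29.7% of all promoters) and 3 (5.45%) higher (8.79% of all). The tumors of 344SQR lay wholly below those of 344SQP in 13 of the 55 genes (32.5% of all promoters). They lay wholly above them in 3 (7.58% of all promoters). Of the 25 called promoters, 8 (32.0%) had lines that did not overlap, against 58.5% of all called promoters. A difference of at least 5 points was present in 24.0% of the 25, against 53.1% of all called promoters. edgeR called 0 at an adjusted p under 0.05 (0.0696% of all) and 5 at an unadjusted p under 0.05 (8.62% of all). The 11 regulators of Smads and of Smad ubiquitination were between 0.862% and 2.17% in all tumors and 0 were called. Of 13 extracellular modulators, 10 were lower (29.7% of all promoters) and 2 higher (8.79% of all). Most of the lower ones had lines that overlapped. Among genes with at least 5 sites, the largest lower differences were in Dlx5, a homeobox target of BMPs (31.5% and 18.4% against 8.92% and 16.1%), and Gdf2, which encodes BMP9 (68.6% and 61.5% against 59.8% and 46.0%). Both had lines that were apart. Gdf3 (69.0% and 79.4% against 60.3% and 71.3%) and the homeobox target Msx1 (25.1% and 41.6% against 20.3% and 33.5%) overlapped between lines. Inha, the inhibin alpha chain, was the gene with the largest higher difference, at 8.67% and 14.6% in 344SQP and 17.6% and 28.3% in 344SQR over 32 sites, without overlap. Its difference of 11.3 points had an FDR of 1.60e-109 and an adjusted p of 0.546 in edgeR, and ran from 5.98 to 16.7 points with single tumors left out. The other 2 higher ones were Ltbp2, a latent TGF-beta binding protein gene (11.1% and 17.3% against 15.04% and 19.4%), and Crim1, at 1.18% to 1.47% in all tumors. Of these 7 genes, Msx1 was called in the other direction without replicate 2 of 344SQP, at 1.82 points, and lost its call without replicate 1 of 344SQR, at 0.148 points, while Dlx5, Gdf2, Gdf3, Ltbp2 and Crim1 lost their calls without 1 or more of the tumors. Leaving out replicate 2 of 344SQP left 12 lower calls.

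The gene bodies, taken as the sites between the gene ends and outside all promoter windows, are given next, and the genes named here were picked by their body values. Of 46 members with sites there, 25 (54.3%) were lower in 344SQR (60.8% of all gene bodies) and 6 (13%) higher (6.6% of all). edgeR called 0 at an adjusted p under 0.05 (0.00566% of all) and 7 at an unadjusted p under 0.05 (19.1% of all). Bmp2 stood out: its promoter was between 1.28% and 2.77% in all tumors, and its 132 body sites averaged 14.1% and 17.9% in 344SQP and 4.19% and 2.62% in 344SQR. The lines were apart by more than their SDs (16.0% ± 2.70 and 3.41% ± 1.11, SD, n = 2 each), with z = −48.5 and an adjusted p of 0.0694 in edgeR, the smallest among these gene bodies. The 31 intronic sites averaged 26.9% and 33.5% against 10.5% and 5.17%, and the 33 coding sites 16.6% and 26.1% against 2.17% and 2.43%. The other 68 sites, in the 5′ untranslated part, differed less, with 7.10% and 6.93% against 2.29% and 1.55%. All body sites lay between positions 133552668 and 133554831 of chromosome 2, in the part of the gene next to the promoter window. At position 133553398 of chromosome 2, in an intron 1239 bp from the TSS, 65 of 118 and 74 of 119 reads were methylated in 344SQP (55.1% and 62.2%) and 30 of 147 and 16 of 170 in 344SQR (20.4% and 9.41%). The difference at this single site was −43.7 points, against −12.6 points over all body sites.

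**Figure D3:**
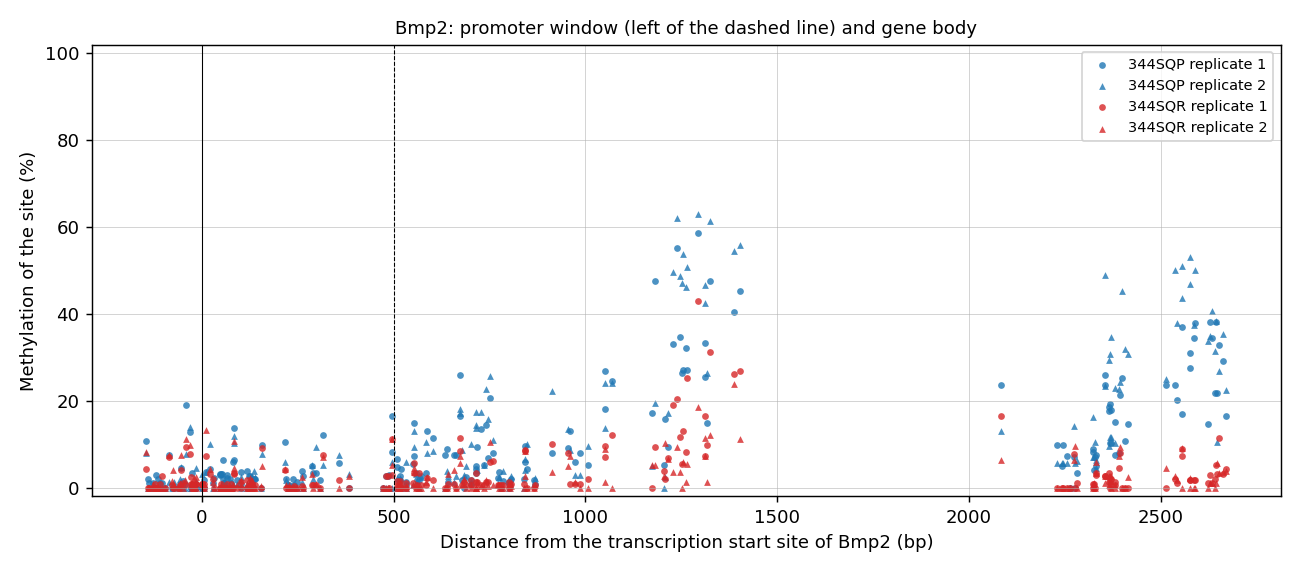
Methylation of each qualified cytosine of Bmp2 (%, vertical axis) against its distance from the TSS in bp (horizontal axis), with the end of the promoter window at the dashed line and 1 point per tumor (blue 344SQP, red 344SQR; circles replicate 1, triangles replicate 2). Up to the dashed line both lines lie near 0, and further into the gene the blue points rise above most red ones.

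Inhba, which encodes the activin A chain, showed the same direction in its body, with 23.8% and 21.99% in 344SQP and 5.22% and 5.56% in 344SQR over 8 sites (FDR 3.95e-49; adjusted p 0.148 in edgeR). Its promoter was between 1.89% and 3.18% and was not called. Fstl3, which encodes a follistatin-like activin antagonist, went the other way in its body (21.6% and 39.6% against 34.2% and 57.6%, 28 sites; 3.63 to 27.0 points with single tumors left out), while its promoter was called lower (4.57% and 7.59% against 3.77% and 2.06%). The body of Id4 was higher, as its promoter was, at 34.7% and 60.7% against 49.8% and 75.7% over 26 sites; without replicate 2 of 344SQR its difference was 2.07 points and no longer called. The lines overlapped in Fstl3 and Id4 and not in Bmp2 and Inhba. Of the 44 genes with sites in both regions, 10 (22.7%) were called lower in both and 3 (6.82%) higher in both, against 19.3% and 1.64% of all genes with both. Of the 23 whose promoter was not called, 11 (47.8%) had a lower body, against 51.5% of all such genes.

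The upstream flanks ran from 5000 to 1001 bp before each TSS and left out promoter windows but not gene bodies. In genes with an inner TSS a flank can therefore share sites with the body, and the counts of both are then not separate. The sites of the Inhba flank, which was called lower, are the intronic sites of its body, and the Acvrl1 flank reaches into its body. Flanks held sites in 16 genes. Of these 9 (56.3%) were lower (52.2% of all flanks) and 1 (6.25%) higher (7.69% of all), with 0 called by edgeR at an adjusted p under 0.05 (0.068% of all) and 1 at an unadjusted p under 0.05 (15.8% of all). Smad3, a receptor Smad of the TGF-beta branch, had the largest difference: its promoter was at 0.869% to 1.52% in all tumors, and 7 sites of its flank averaged 32.8% and 51.0% in 344SQP and 17.6% and 10.95% in 344SQR (FDR 2.96e-31; adjusted p 0.237 in edgeR). The flank of Smad7 was at 49.0% and 37.7% against 32.9% and 23.2% (5 sites), that of Acvrl1 at 62.9% and 61.9% against 59.9% and 52.6% (9 sites), and that of Gdf11 at 3.79% and 4.89% against 2.20% and 2.16% (7 sites). In all 4 genes both 344SQR tumors lay below both 344SQP tumors, and the call of the Gdf11 flank was lost without replicate 2 of either line. The difference in the Acvrl1 flank rested mainly on replicate 2 of 344SQR.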

How the data were processed

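The authors trimmed reads with Trim Galore 0.4.1 and cutadapt 1.9.1, mapped them to mm10 with Bismark and Bowtie 1.1.2, and deposited a table for each tumor, with read counts as coverage for every strand of a CpG. Methylated and unmethylated reads are deposited as percent of that coverage; tumors were not pooled and no minimum of coverage was applied. Methylated reads were recomputed as coverage times percent. Sites were kept if no tumor had under 20 reads (1081201 sites, all at a CpG of the reference), where 1 read is worth at most 5 percentage points. Their coverage averaged 103.4, 120.9, 140.5 and 144.3 reads. Regions were taken from GENCODE vM21 (basic set, GRCm38), joining the TSS windows of each gene. Host and lines are of 129 origin and the reference is C57BL/6J, so strain variants at a CpG were not removed.

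The likelihood ratio test per site (logistic model, line as the only factor, smallest p 2.2e-16), signed Stouffer z per region and Benjamini-Hochberg adjustment over all regions of a kind were two-sided. edgeR's quasi-likelihood test used methylated and unmethylated counts summed per region. Error rates of these tests with spread between tumors were not simulated. Alternatives were coverage minimums of 10 and 50, strands merged, the outermost TSS only, each tumor left out in turn, edgeR, and a replicate block by Mantel-Haenszel test or in edgeR. Members, the list of other pathway genes, the marker lists and the tests were chosen with earlier results of these data known. Genes were named by this rule: receptors and Smads of Bmp7, Mapk14, Fst, Nog, Id1 to Id4 and Tgfb1 to Tgfb3 in any case; members with an FDR under 0.05 and at least 5 points; members without a site or over 50% in every tumor; up to 4 other pathway genes in each direction, and 4 gene bodies and 4 flanks, with the largest differences among those called with at least 5 sites. Python 3.11.15, numpy 2.4.6, pandas 2.3.3, scipy 1.17.1, statsmodels 0.14.6, pysam 0.24.0, matplotlib 3.10.9, R 4.3.3 and edgeR 4.0.16 were used.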

Additional observations from a re-analysis of the deposited data

How the results depend on the processing

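At coverage minimums of 10 and 50, with strands merged and with the outermost TSS only, 15 member promoters were lower each time and 6 to 8 higher; 20 to 22 of the 22 called members were also called under each of these settings. Leaving out single tumors gave 12 to 20 lower and 4 to 9 higher member promoters, 12 to 23 lower and 1 to 7 higher promoters of other pathway genes, 21 to 31 lower and 3 to 8 higher gene bodies, 5 to 10 lower and 0 to 2 higher flanks, 310 to 586 called member sites in place of 464, and a mean difference over member promoters of −1.83 to 2.54 points. edgeR called 0 in each direction for member promoters, other pathway promoters, gene bodies and flanks.

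With single tumors left out, z turned sign for 8 of the results named by rule, in a setting where the result was called there or in the full data, and also for Eng (−16.0 to 24.0 points). Their differences ranged from −0.275 to 0.054 points for Bmpr1a, −14.7 to 1.44 for Bmpr1b (0.476 and not called without replicate 1 of 344SQR), −0.753 to −0.131 for Fst, 0.339 to 9.3 for Nog, −5.83 to 23.5 for Id4, −5.7 to 21.8 for Bmp4, −14.8 to 1.82 for Msx1 and 2.01 to 28.1 for the Id4 body. Without replicate 1 of 344SQP this held for Bmpr1a (−0.0482 points, called higher), Fst, Nog (1.38), Id4 (−3.71, called lower) and Bmp4 (−4.81); without replicate 2 of 344SQR for Nog (0.339, called lower), Id4 (−5.83, called lower), Bmp4 and the Id4 body (2.07); without replicate 2 of 344SQP for Bmpr1b and Msx1 (called higher). The others were not called there. The cause was not tested. Of 46 named results, 25 stayed called in the same direction, or not called, under those settings that were run for them. The settings were coverage, strand, TSS, Mantel-Haenszel and leave-one-out, while edgeR is counted above. Gene bodies were not run at the coverage minimum of 10, with strands merged or with the outermost TSS only. Bmp4 has no site at 50 reads.

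Same-numbered tumors share only a number; no source pairs them. The gaps between replicate 2 and replicate 1 in the lines correlated with r = 0.663 across all promoters and 0.912 across member promoters. With the replicate number as a replicate block, edgeR called 15 of 50 member promoters (10 lower, 5 higher; 11.8% of all promoters were called), 5 lower and 1 higher other pathway promoters (10.9%), 6 lower and 4 higher gene bodies (21.7%; 23.1% of all), and 1 lower and 0 higher flanks (6.25%; 17.3% of all); Smad5 was among the lower promoters (adjusted p 0.0359). The Mantel-Haenszel block gave 15 lower and 7 higher member promoters and 422 sites, with Eng called higher (FDR 0.000987) and Bmp4 no longer called (FDR 0.0575). Eng was not called by edgeR with the replicate block (adjusted p 0.719).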
